A study of Mus musculus with 2 samples.

Results

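The 9 genes described here, Atf4, Ddit3, Trib3, Chac1, Asns, Sesn2, Ddit4, Hspa5 and Xbp1, belong to the integrated stress response and the unfolded protein response of the endoplasmic reticulum. They were found by symbol among the 55415 features of the deposited matrices, and the list of symbols was drawn up with earlier results of these data known. The symbol Ddit3 stood on a pair of feature rows, of which ENSMUSG00000116429 held 0 UMIs (molecule counts) in both libraries, so ENSMUSG00000025408 carries its values. The samples were mouse embryonic stem cells (mESC), which divide indefinitely in culture and can form every tissue of the embryo. Per the series' design text the line carried a reporter in which the promoter of MERVL, an endogenous retrovirus transcribed in a state that resembles the early cleavage-stage embryo (2C-like), drives GFP, and a second construct, H2B-mIFP, that labels nuclei for tracking. The line is 1 reporter line, no drug, time point or further genotype is given, and the sort that separated the cells is not described. There were 2 groups of 1 single-cell library each, MERVL GFP positive and MERVL GFP negative, and the design text gives the tracing of 2C-like cells as the aim.

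Cells answer several stresses by phosphorylating the translation factor eIF2, which lowers general protein synthesis and favours translation of the transcription factor ATF4. ATF4 then switches on genes for amino acid supply, antioxidant defence and, with CHOP (the product of Ddit3), cell death. Unfolded protein in the endoplasmic reticulum is sensed by PERK (which phosphorylates eIF2), by ATF6 and by IRE1, which splices Xbp1 mRNA, and the last 2 raise chaperones such as BiP (the product of Hspa5). Gene counts show neither the translation of ATF4 nor the splicing of Xbp1, so all values below are mRNA levels. In embryonic stem cells, genes of the Zscan4 family mark the 2C-like state.

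The positive library held 4603 cells, of which 4596 were kept, with a median of 29554.5 UMIs per cell, and the negative library held 3832 cells, all kept, with a median of 39099.5. The median mitochondrial share was 2.56% and 1.60%. The libraries shared 3 cell barcodes. With 1 library in each group, group cannot be told apart from library or batch, and no test between the groups could be run. The 95% intervals given throughout cover counting error only and leave out the spread between cells. The 11 pluripotency genes checked had 15499 CPM (a gene's UMIs per 1000000 UMIs of the library or class) in the positive and 14708 CPM in the negative library, of which Dppa5a alone held 74.2% and 70.4%, while the median log2 ratio over the 11 was -0.22, with 2 higher and 0 lower by the 1.5-fold rule given below. Zscan4 transcripts, counted over the family because its copies are near-identical, had 483 CPM and 0.812 CPM, and of the 15 markers of the 2C state that were measured, 2 were at 0 in the negative library. The 9 primitive endoderm markers summed to 207 CPM and 102 CPM, the 9 trophoblast markers to 98.0 and 59.8 CPM, and the 9 fibroblast markers to 22.3 and 8.12 CPM with 2 of them at 0 in the negative library. The 7 heat shock genes summed to 5740 and 5218 CPM, and of the 6 that passed 0 were called lower and 2 higher, Hspa1a with 10.1 against 0.345 CPM and Dnajb1 with 46.2 against 28.5 CPM. The immediate early list, genes induced quickly by stimuli that include cell handling, had 177 and 230 CPM, with 2 of 6 genes that passed called higher and 3 lower. The 12 target genes of the transcription factor p53 had 1151 and 1178 CPM, and of the 11 that passed 5 were called higher and 2 lower. These marker levels move with the libraries, and their part in the library differences below was not tested except where cells were left out.

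Promoter sequence was read for all 9 genes because several of them are known for response elements near their start sites. The windows run from 250 bases before to 50 bases after the RefSeq start on build GRCm38.p6 and were searched on both strands for 5 motifs, of which ACGTG is also part of TGACGTGG. The stretches below were chosen because they hold, in capitals, the core TGATGNAA bound by ATF4 with C/EBP proteins, found in 3.97% of 32851 windows, the endoplasmic reticulum stress response element made of CCAAT and CCACG with 9 bases between them, found in 0.119% of windows, or the cores ACGTG and GCGTG of hypoxia response elements, found in 19.6% and 32.4% of windows. Each is written 5′ to 3′ along the strand of the gene. Positions of whole genes given further on are those of the GENCODE annotation of GRCm38.
Chac1, chr2:119351019-119351086, plus strand: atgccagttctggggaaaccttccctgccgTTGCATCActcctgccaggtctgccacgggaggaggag
Asns, chr6:7693214-7693243, minus strand: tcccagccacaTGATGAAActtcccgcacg
Trib3, chr2:152344028-152344057, minus strand, from base 4 to base 33 after the start: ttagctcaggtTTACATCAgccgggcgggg
Hspa5, chr2:34772020-34772048, plus strand: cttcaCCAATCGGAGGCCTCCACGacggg
Ddit4, chr10:59951861-59951977, minus strand: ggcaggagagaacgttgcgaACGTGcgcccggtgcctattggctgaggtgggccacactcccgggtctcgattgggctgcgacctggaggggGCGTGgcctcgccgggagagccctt

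In Chac1 and Trib3 the match to TGATGNAA lies on the opposite strand, so the capitals show its reverse complement. Chac1, Asns and Trib3 were the 3 of the 9 genes with a match to TGATGNAA, and Hspa5 was the 1 with the stress response element. ACGTG was also present in the windows of Ddit3, Asns and Hspa5, and GCGTG in those of Ddit3, Atf4, Trib3, Chac1, Asns and Hspa5. None of the 5 motifs, which include the core TGACGTGG found in 0.676% of windows, was present in the windows of Xbp1 and Sesn2. A match says only that these letters occur there.

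The first comparison set the reporter-positive library against the reporter-negative one. Chac1 and Trib3 were lower in the positive library, Ddit4 was higher, and the other 6 genes differed by less than 1.5-fold. A gene was called higher or lower when the ratio of CPM + 1 was at least 1.5, with at least 10 CPM on one side and at least 50 UMIs in all. Of the 9 genes 8 passed the filter, all but Ddit3, and 1 was called higher and 2 lower. Of all 8042 genes that passed, 17.6% were called higher and 4.89% lower. The median log2 ratio of the 9 genes was 0.14, the same as the 0.14 over all genes tested. Scaling by trimmed means (TMM) or by the median of ratios moved the median of all genes to -0.16 or -0.08 and the share of higher genes among the calls from 78.3% to 34.9% or 46.7%, so differences of that size take their sign from the scaling. The median of ratios was taken over the 14513 genes with at least 1 CPM on one side. Over all 28983 genes with a UMI on both sides it moved the median to -0.16, and over the 8029 genes of at least 10 CPM to -0.01.

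**Figure D1:**
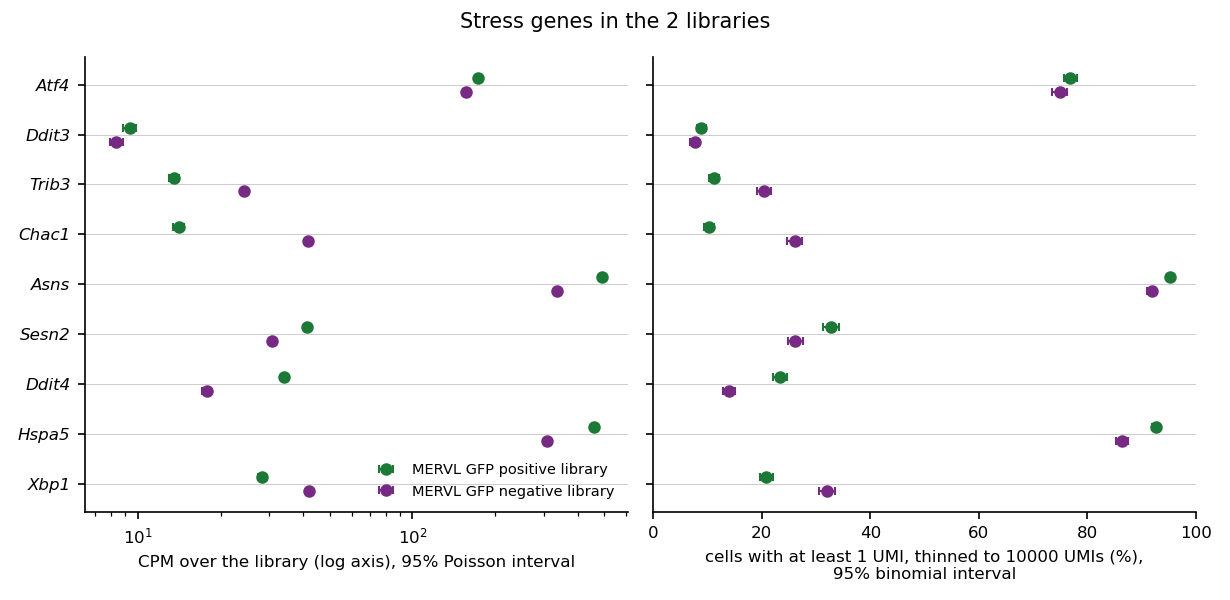
Levels of the 9 stress genes in the positive (green) and negative (purple) library, as CPM on a log axis with Poisson intervals (left) and as the percentage of cells with at least 1 UMI after each cell was thinned to 10000 UMIs, with binomial intervals (right). Chac1 (14.1 against 41.8 CPM) and Trib3 (13.5 against 24.4 CPM) lie lower in the positive library and Ddit4 (34.1 against 17.8 CPM) higher.

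Atf4 (chr15:80255184-80257541, plus strand), the central transcription factor of the integrated stress response, had 173 CPM in the positive library (Poisson interval 171 to 175) and 157 CPM in the negative library (155 to 159). Ddit3 (chr10:127290774-127296288, plus strand), which encodes the pro-apoptotic factor CHOP, had 9.33 CPM (8.83 to 9.85) and 8.35 CPM (7.90 to 8.82). Both stood a little higher in the positive library by CPM, each with a log2 ratio of 0.14, and both took the opposite sign under TMM, at -0.16 and -0.12, and under the median of ratios, at -0.08 and -0.05. With the ratios over genes of at least 10 CPM these were -0.01 and 0.01. Ddit3 was uneven between cells: the 44 positive-library cells with the most of it, 1% of the cells after thinning to 10000 UMIs, held 29.0% of its UMIs, and the 38 such negative-library cells held 25.7%. A single positive-library cell with 12877 UMIs held 58 of the 1290 Ddit3 UMIs, or 4.50%. After thinning that cell had 41 of the 503 Ddit3 UMIs, 0 UMIs of Atf4, Trib3, Chac1 and Asns and 1 each of Hspa5 and Sesn2.

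Trib3 (chr2:152337422-152344032, minus strand) encodes a pseudokinase that is induced by ATF4 and CHOP and restrains ATF4. It had 13.5 CPM (12.9 to 14.2) in the positive library against 24.4 CPM (23.7 to 25.2), for a ratio of 0.554 (exact interval 0.524 to 0.586). Chac1 (chr2:119351229-119354381, plus strand), which encodes an enzyme that breaks down glutathione, had 14.1 CPM (13.5 to 14.7) and 41.8 CPM (40.8 to 42.8), a ratio of 0.337 (0.320 to 0.355). Of the genes described here, Chac1 and Trib3 thus had the lowest ratios in the positive library. Asns (chr6:7675169-7693254, minus strand), the ATF4 target that makes asparagine, went the other way, with 491 CPM (487 to 495) in the positive library against 336 CPM (333 to 339). Its log2 ratio was 0.55, and 0.25 under TMM. Sesn2 and Ddit4, which ATF4 is also known to induce, had log2 ratios of 0.41 and 0.90. The low levels of Chac1 and Trib3 were therefore not shared by these other ATF4-induced genes.

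Sesn2 and Ddit4 encode stress-induced inhibitors of mTORC1, the kinase complex that drives growth when nutrients are present. Sesn2 (chr4:132492032-132510501, minus strand) had 41.2 CPM (40.1 to 42.3) in the positive library against 30.8 CPM (29.9 to 31.7), with a log2 ratio of 0.41. Ddit4 (chr10:59949669-59951834, minus strand), also a known target of the hypoxia-inducible factors, had 34.1 CPM (33.2 to 35.1) and 17.8 CPM (17.2 to 18.5), a ratio of 1.92 (1.83 to 2.01). Both stood higher in the positive library, Ddit4 past the 1.5-fold mark and Sesn2 short of it. Sesn2 was at 0.12 under TMM and 0.20 under the median of ratios, and Ddit4 at 0.62 and 0.69.

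Hspa5 (chr2:34771970-34777547, plus strand), the main chaperone of the endoplasmic reticulum, had 459 CPM (455 to 462) in the positive library against 310 CPM (307 to 312), with a log2 ratio of 0.57. Xbp1 (chr11:5520659-5525893, plus strand), the transcription factor activated by IRE1, had 28.3 CPM (27.4 to 29.2) and 41.9 CPM (40.9 to 42.9), a log2 ratio of -0.55. These 2 genes of the unfolded protein response thus differed in opposite directions. Both ratios lie just inside the 1.5-fold mark and depend on the processing: under TMM Xbp1 was at -0.84 and Hspa5 at 0.27, under the median of ratios they were at -0.76 and 0.35, and with CPM averaged over cells at -0.60 and 0.61. Without the cells that had 2 or more endoderm-marker UMIs Xbp1 was at -0.67, past the mark.

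Because the cells of the negative library were deeper, shares of cells with a UMI were compared after each cell was thinned to 10000 UMIs, which dropped 194 shallower cells of the positive and 8 of the negative library. Chac1 was detected in 10.2% of 4402 positive-library cells (Clopper-Pearson, 9.32 to 11.1) against 26.1% of 3824 cells of the negative library (24.7 to 27.5). Trib3 was detected in 11.2% and 20.4%, and Xbp1 in 20.8% and 32.0%. Ddit4 was detected in 23.4% (22.1 to 24.6) and 14.0% (12.9 to 15.1), and Sesn2 in 32.8% and 26.2%. The order of the shares between libraries was that of the CPM for all 9 genes. Ddit3 was detected in 8.81% and 7.64%, Atf4 in 76.9% and 74.9%, Asns in 95.3% and 91.8% and Hspa5 in 92.7% and 86.4%. Without thinning the shares of Chac1 were 21.8% and 51.2% and those of Ddit4 44.1% and 37.6%. No cell type here is known to lack these genes, so no background share from free RNA could be measured, and low shares such as those of Ddit3 may hold some.

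Other genes of the same pathways were described as 3 lists that hold none of the 9. Of the 38 ATF4 target genes (amino acid synthesis and transport, tRNA charging and stress regulators), 31 passed the filter, 0 were called higher and 5 lower, with a median log2 ratio of -0.27 over those with 50 UMIs. Nupr1, a small stress-induced chromatin protein, had 63.2 CPM in the positive and 174 CPM in the negative library, and Jdp2 and Slc7a3 were lower too, at -1.14 and -0.90. Atf5, Ppp1r15a and Aars had the highest ratios in that list, from 0.38 to 0.47, none past the mark. Of the 28 endoplasmic reticulum chaperone and degradation genes, 26 passed, 12 were called higher and 0 lower, with a median of 0.53. Dnajb9, a co-chaperone of BiP and a known XBP1 target, had 42.8 CPM in the positive and 13.1 CPM in the negative library, Derl2 had 46.7 and 21.3 CPM, and Calr had 500 and 250 CPM. Herpud1, Crebrf and Sec61b had the lowest ratios, from -0.42 to -0.28. Under TMM the ATF4 targets gave 0 higher and 13 lower and the chaperone list 4 higher and 2 lower, with medians of -0.53 and 0.26, where 8.6% of 7963 genes were higher and 16.1% lower. Under the median of ratios the targets gave 0 and 10 and the chaperones 6 and 1, where 10.3% and 11.8% of 7957 genes were. Of the 16 stress sensors and genes of the eIF2 machinery, 15 passed and 1 was called higher, Eif2ak3, which encodes PERK, with 16.4 and 9.25 CPM. That call was lost under TMM and under the median of ratios, with 0 higher and 0 lower in each, and the list's median of 0.26 turned to -0.03 and 0.04.

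Within the positive library 790 cells had neither a Zscan4 nor a GFP UMI after thinning. Over all their UMIs they still held 43.3 CPM of Zscan4 and 28.2 CPM of GFP transcripts, against 0.148 and 0.303 CPM in negative-library cells chosen in the same way. Chac1, at 18.4 CPM, was lower in them than in the negative library, and Hspa5, at 529 CPM, was higher. Against the negative library the log2 ratio was -1.14 for Chac1 and 0.77 for Hspa5, both past the mark. Trib3 had 18.3 CPM, Ddit4 23.2 CPM and Xbp1 42.5 CPM in these cells, with log2 ratios of -0.40, 0.36 and 0.02, all short of it. So 8 of the 9 genes passed the filter, 1 was called higher and 1 lower, where 10.9% and 2.08% of 7802 genes were. These 790 cells had 245 CPM of the endoderm list and 1686 CPM of the hypoxia list, against 102 and 1289 CPM in the negative library, and a median mitochondrial share of 2.38% against 1.60%. The part of these in the difference of Hspa5 was not tested. This choice of cells was made after the data were seen.

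Levels were then followed within the positive library across classes of cells defined by their Zscan4 transcripts, which mark the 2C-like state. Ddit3 and Ddit4 were higher in cells rich in Zscan4, and Xbp1, Chac1, Trib3 and Hspa5 were lower. The 4402 thinned cells were split into 1440 with 0 Zscan4 UMIs, 1469 with 1 to 2, 830 with 3 to 9 and 663 with 10 or more, and all UMIs of each class were summed. Between the outer classes, of 9 genes passing the filter (Ddit3, Trib3 and Chac1 on one side only), 2 were called higher and 4 lower, where 15.6% and 15.1% of 8400 genes were. The median of the 9 was -0.21 and that of all genes tested -0.09. Hspa5 was short of the mark under the median of ratios, at -0.56 (-0.65 when that median was taken over all genes with a UMI, past the mark), and when cells with 3 or more Zscan4 UMIs stood for the high class, at -0.44.

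**Figure D2:**
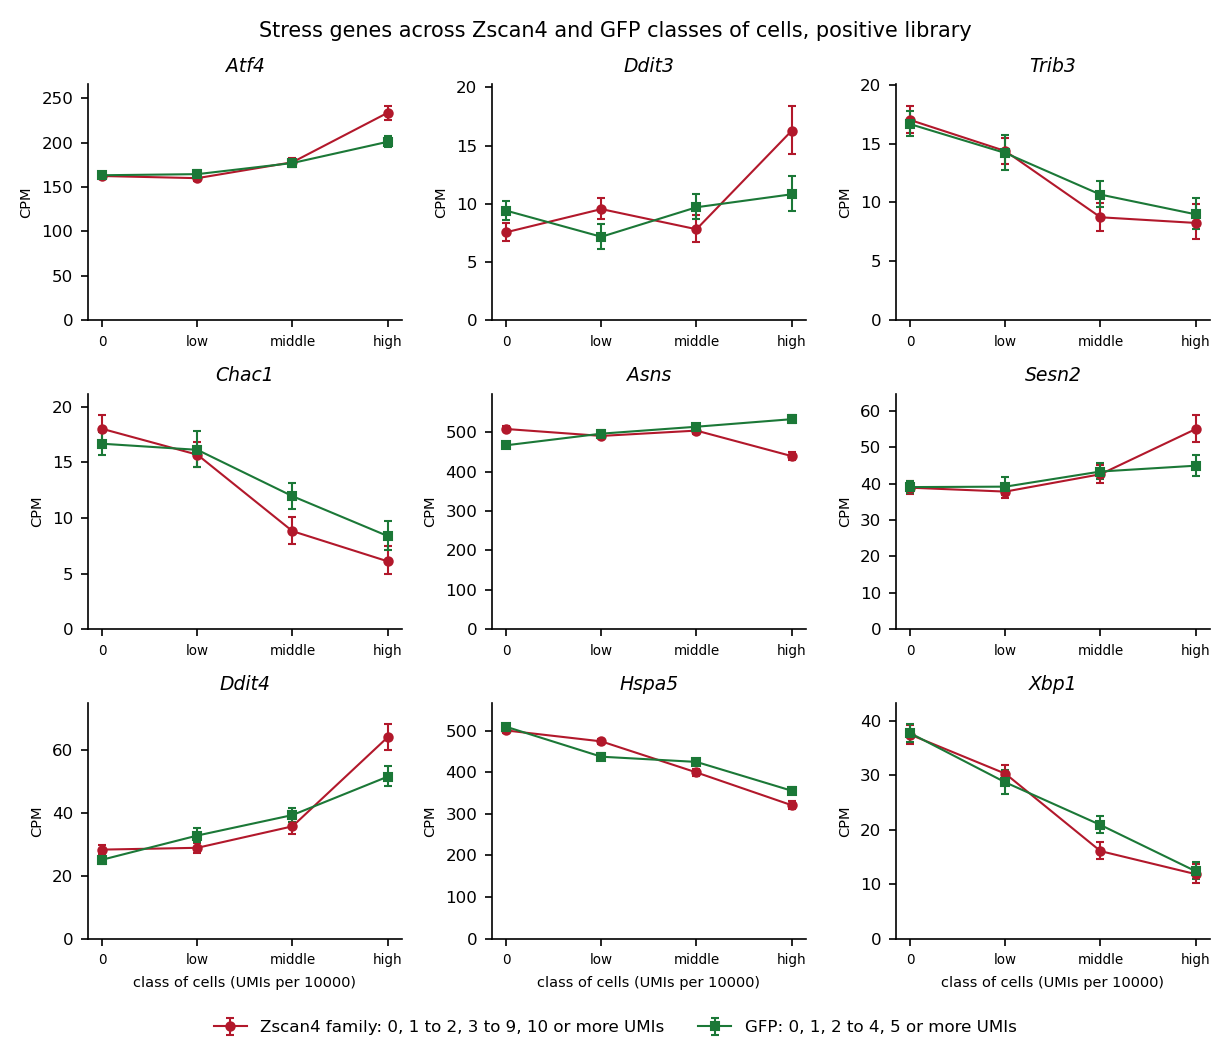
CPM of each of the 9 genes (vertical axes, linear from 0, with Poisson intervals) in 4 classes of positive-library cells ordered by Zscan4-family UMIs (red circles) or GFP UMIs (green squares), counted in cells thinned to 10000 UMIs. Xbp1 stands at 37.4 CPM in cells with 0 Zscan4 UMIs and at 11.8 CPM where 10 or more were counted, and Ddit4 at 28.3 and 64.1 CPM.

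Atf4 had 162, 160, 178 and 234 CPM from the class with 0 Zscan4 UMIs to that with 10 or more, so the classes with 0 and 1 to 2 overlapped in their intervals and the highest class stood apart. Ddit3 had 7.55, 9.54, 7.81 and 16.3 CPM, again with the highest class apart from the others, at a ratio of 2.15 (1.83 to 2.54) to the lowest. These intervals leave out the unevenness of UMIs between cells. In thinned positive-library cells the variance of UMIs over their mean was 4.54 for Ddit3 and 1.59 for Atf4. When cells with 3 or more UMIs were taken in place of 10 or more, the log2 ratio of Ddit3 was 0.49 in place of 1.01. Sesn2 had 38.9, 37.8, 42.6 and 54.9 CPM, a log2 ratio of 0.49. Atf4, at 0.52, was past the mark under the median of ratios, at 0.60 (0.52 over all genes with a UMI), and with 20 or more UMIs for the high class, at 0.64, where Sesn2 was at 0.68. Ddit4 had 28.3, 28.9, 35.7 and 64.1 CPM, a ratio of 2.26 (2.08 to 2.46), and was like Atf4, Ddit3 and Sesn2 in that its highest level was in the last class.

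Chac1 had 18.01, 15.7, 8.82 and 6.11 CPM across the same classes, a ratio of 0.339 (0.271 to 0.420) between the outer ones. Trib3 had 17.003, 14.4, 8.74 and 8.26 CPM, a ratio of 0.486 (0.400 to 0.586). Chac1 and Trib3 thus stood low in the class where the mRNAs of Atf4 and Ddit3 were highest, with the last 2 classes of Trib3 overlapping in their intervals, while Sesn2 and Ddit4, which ATF4 is also known to induce, stood high. Over all thinned cells of this library, Pearson's r of log(1 + UMIs) was 0.11 for Atf4 with Chac1 and 0.08 with Trib3. For Ddit3 it was 0.01 and 0.02. Asns had 508, 490, 504 and 439 CPM, a log2 ratio of -0.21. Hspa5 had 500, 474, 399 and 321 CPM, and Xbp1 had 37.4, 30.3, 16.1 and 11.8 CPM, a ratio of 0.316 (0.270 to 0.368). Both were lower in each class than in the class before it, with no overlap of neighbouring intervals.

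The classes also differed in other ways. Median UMIs per cell were 33211.5 in the class with 0 Zscan4 UMIs and 20941 in that with 10 or more, and the median mitochondrial share was 2.34% and 3.10%. The primitive endoderm list had 262 and 98.1 CPM, and the hypoxia list 1796 and 1630 CPM. The pluripotency list had 16526 and 10302 CPM, with 8 of its 11 genes called lower, and the immediate early list had 169 and 253 CPM, with 4 of 7 genes that passed called higher. The heat shock list had 5976 and 5226 CPM in sum, while 3 of its 7 genes were called higher and 0 lower, Hspa1a with 53.1 against 6.12 CPM, Hspa1b and Dnajb1. Among cells of 20000 to 40000 UMIs the log2 ratios were 0.85 for Ddit3, 1.01 for Ddit4, -0.93 for Trib3, -1.44 for Chac1, -0.64 for Hspa5 and -1.58 for Xbp1, all past the mark. Without the cells that had 2 or more endoderm-marker UMIs Hspa5 was at -0.53, short of the mark, and Xbp1 at -1.54. The part of the mitochondrial share and of the hypoxia, pluripotency, immediate early and heat shock lists was not tested.

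Of the ATF4 target genes, 29 passed the filter between the same classes, 2 were called higher and 7 lower, with a median log2 ratio of -0.44. The higher ones were Ppp1r15a, which encodes the subunit that directs dephosphorylation of eIF2, with 98.1 against 45.3 CPM, and Iars, a tRNA synthetase gene, with 168 against 105 CPM. Nupr1 (26.1 against 80.8 CPM) and the arginine transporter genes Slc7a1 (16.9 against 45.8 CPM) and Slc7a3 (9.95 against 25.1 CPM) had the lowest ratios. Of the chaperone and degradation genes 27 passed, 2 were called higher and 3 lower. Dnajb9 had 132 CPM in the Zscan4-rich class and 23.2 CPM in the class with 0, a log2 ratio of 2.46, while Xbp1 itself had 11.8 and 37.4 CPM, and Derl2 was at 1.05. Pdia6, Hyou1 and Hsp90b1 were lower, from -0.67 to -0.63, near the -0.64 of Hspa5. Lower calls in that list numbered 5 with CPM averaged over cells, in place of 3. They numbered 1 under the median of ratios and 0 with the ratios over genes of at least 10 CPM. Of the 15 sensor and eIF2 genes that passed, 0 were called higher and 2 lower, namely Eif2ak2, which encodes the double-stranded RNA sensor PKR (10.3 against 21.9 CPM), and Mbtps2, which encodes a protease that releases ATF6 (6.83 against 11.2 CPM). Under the median of ratios 1 sensor was higher and 1 lower.

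The negative library could not be followed in the same way. After thinning, 3808 of its 3824 cells had 0 Zscan4 UMIs, 14 had 1 to 2 and 2 had 10 or more. These cells are too few for a comparison.

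GFP transcripts report on the MERVL promoter more directly than Zscan4 does. Across GFP classes of the positive library Ddit4 was higher and Xbp1, Chac1 and Trib3 were lower in cells rich in GFP, with smaller differences than across Zscan4 classes for Ddit3 and Atf4. The classes held 1736 cells with 0 GFP UMIs, 763 with 1, 1134 with 2 to 4 and 769 with 5 or more. All 9 genes passed the filter, Ddit3, Trib3 and Chac1 on one side only, and 1 was called higher and 3 lower, where 8.1% and 8.54% of 8206 genes were. The median of the 9 was 0.18, or 0.28 under TMM, 0.30 under the median of ratios and 0.003 with CPM averaged over cells. That of all genes tested was -0.11, or -0.01 under TMM and 0.02 under the median of ratios. The share of higher genes among all calls went with it, from 48.7% to 63.0% and 68.2%.

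Ddit4 had 25.1, 32.8, 39.3 and 51.5 CPM from 0 to 5 or more GFP UMIs, higher in each class than in the one before with no overlap of neighbouring intervals, at a ratio of 2.05 (1.89 to 2.23) between the outer classes. Xbp1 had 37.7, 28.7, 20.9 and 12.4 CPM, a ratio of 0.328 (0.286 to 0.375). Chac1 had 16.7, 16.1, 12.0 and 8.39 CPM and Trib3 had 16.7, 14.2, 10.7 and 8.99 CPM, so that these 3 genes were lowest in the class richest in GFP. Hspa5, with 509, 437, 425 and 356 CPM, had a log2 ratio of -0.52. Atf4 had 163, 164, 177 and 201 CPM, and Sesn2 39.0, 39.2, 43.3 and 44.9 CPM, with log2 ratios of 0.30 and 0.20. Asns had 467, 496, 514 and 533 CPM, a log2 ratio of 0.19, where across Zscan4 classes it was -0.21. Ddit3 had 9.41, 7.16, 9.70 and 10.8 CPM with no order, and its log2 ratio was 0.18, or 0.33 without the 1 cell that held 58 of its UMIs. With 1 or more GFP UMIs for the high class it was -0.03, and Trib3 and Chac1 were short of the mark, at -0.51 and -0.40.

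GFP-rich cells were shallower, with median UMIs of 24519 against 32625.5, and had 1084 against 197 CPM of Zscan4 transcripts. The pluripotency list had 13512 against 16095 CPM, with 1 of its 11 genes called higher and 5 lower, and the heat shock list 5282 against 6020 CPM, with 2 of 6 higher and 0 lower. Their part was not tested. In cells of 20000 to 40000 UMIs the same 4 genes were past the mark, with log2 ratios of 0.86 for Ddit4, -1.45 for Xbp1, -0.69 for Chac1 and -0.71 for Trib3. Of the list genes Dnajb9 again had the highest ratio, with 78.0 against 26.1 CPM, followed by Ppp1r15a with 80.5 against 46.0 CPM. Slc7a1 and Slc7a3 were at -1.11 and -1.04. Of the ATF4 targets 29 passed, 2 were called higher and 4 lower, of the chaperone list 26 passed with 2 higher and 0 lower, and of the sensors 15 passed with 0 higher and 2 lower, Eif2ak2 and Mbtps2 again, of which 1 call was lost under the median of ratios. The Zscan4 and GFP classes are drawn from the same cells of 1 library, so they are not separate evidence.

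The hypoxia genes were examined next because low oxygen also engages the integrated stress response and because Ddit4 is known as a hypoxia-induced gene. The list of 24 hypoxia genes, none of them among the 9, had 1799 CPM in the positive and 1289 CPM in the negative library, and the glucose transporter gene Slc2a3 alone made up 41.2% and 25.5% of its UMIs. Cells of each library were ordered by the UMIs of this list after thinning and cut into 4 classes of equal size, of 1100 or 1101 cells in the positive and 956 in the negative library. Ddit4 was higher in the highest than in the lowest class of both libraries, and Ddit3 was higher in the negative library. Chac1 and Trib3 were lower and Hspa5 was higher in both libraries, short of the 1.5-fold mark. Zscan4 transcripts of the positive library moved the other way, from 609 CPM in the lowest to 333 CPM in the highest class, with 0 of 13 markers of the 2C state that passed called higher and 12 lower. GFP transcripts of the same classes went from 177 to 233 CPM. The part of these in the positive-library levels was not tested, beyond the crossing of both axes given further on.

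**Figure D3:**
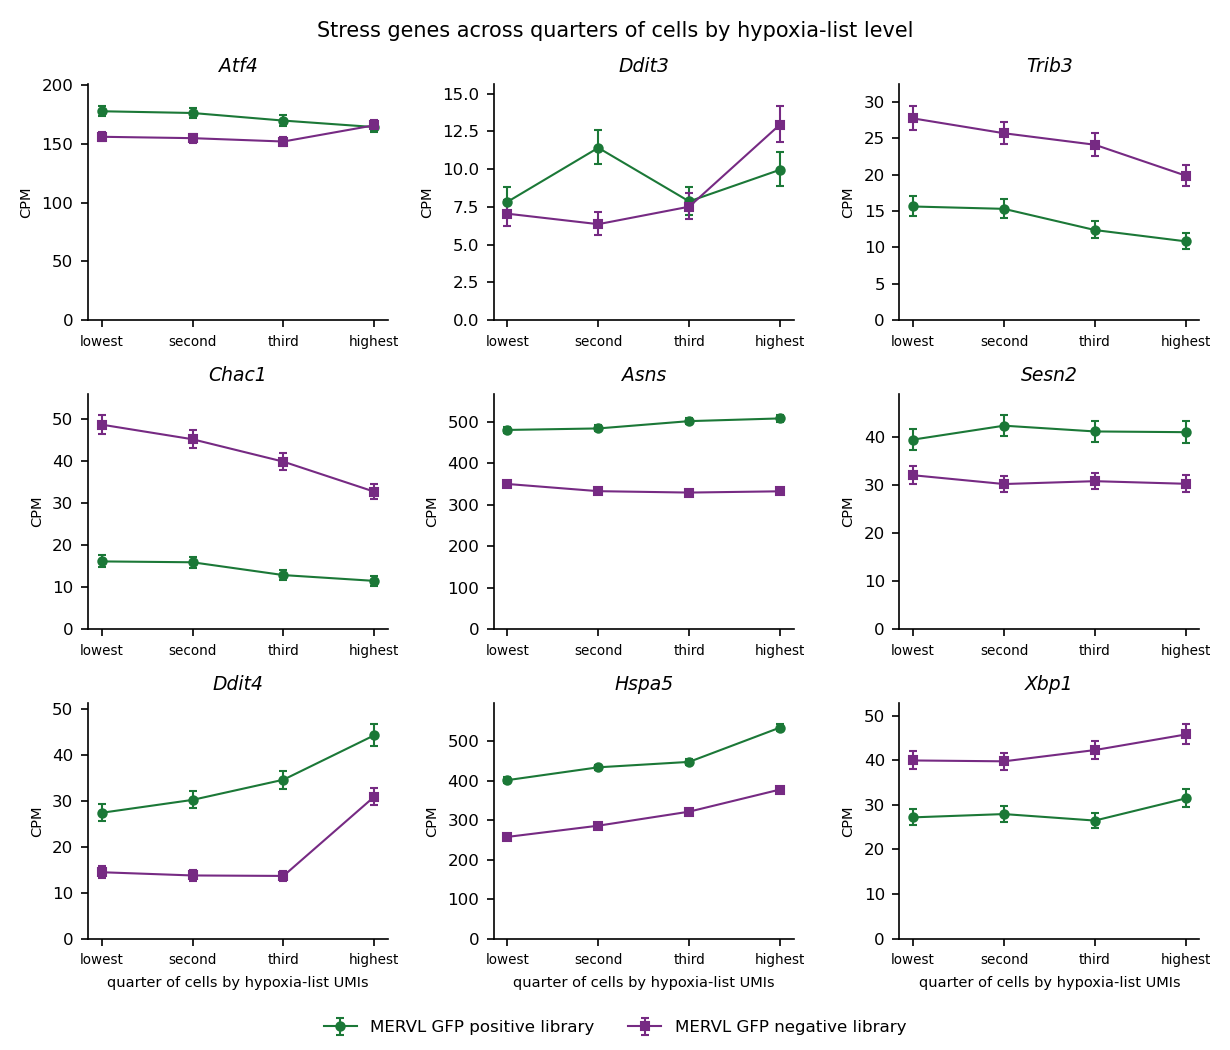
CPM of each of the 9 genes (vertical axes, linear from 0, with Poisson intervals) across 4 equal classes of cells. Cells were ordered by the share of their UMIs from the hypoxia list, in the positive (green circles) and negative (purple squares) library. Ddit4 runs from 27.4 to 44.2 CPM in the positive library and from 14.4 to 30.9 CPM in the negative library.

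In the positive library, of 8 genes that passed the filter, all but Ddit3, 1 was called higher and 0 lower, where 2.44% and 2.08% of 8045 genes were. The median of the 9 was 0.08, against 0.04 over all genes tested. The calls over all genes depend on the scaling, the cells and the list. They were 157 higher and 195 lower under TMM and under the median of ratios, with 44.6% higher in place of 54.0% and a median of -0.02, and 130 and 157 without endoderm-marker cells. The higher calls went from 196 to 618 without its glucose and glycolysis genes, to 697 without its 4 most abundant genes, and to 549 between the outer of 10 classes. In the negative library, of 9 genes that passed, Ddit3 on one side only, 2 were called higher and 0 lower, where 2.87% and 0.299% of 7356 genes were. The median there was 0.09, against 0.04. In the negative library the immediate early list moved with the same classes, from 212 CPM in the lowest to 291 CPM in the highest, with 5 of 8 genes that passed called higher, and stood at 381 CPM in the highest of 10 classes. In the positive library it had 176 CPM in the lowest and 191 CPM in the highest class, with 1 of 7 called higher. Its part in the levels of Ddit3 and Ddit4 was not tested. No test was possible within either library, and the cells of a class are not replicates.

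Ddit4 had 27.4, 30.2, 34.6 and 44.2 CPM from the lowest to the highest class of the positive library (ratio 1.62, interval 1.49 to 1.76), and 14.4, 13.7, 13.6 and 30.9 CPM in the negative one (ratio 2.14, interval 1.93 to 2.37). The first 3 classes of the negative library overlapped with their neighbours in their intervals, and the highest stood apart. With 10 classes in place of 4, the highest had 48.6 CPM of Ddit4 and the next one 22.4 CPM in the negative library, and 65.2 and 34.0 CPM in the positive. With the median of ratios over all genes with a UMI the positive-library log2 ratio of Ddit4, 0.67 by CPM, was 0.58 and just short of the mark. Ddit3 had 7.05, 6.36, 7.51 and 13.0 CPM across the 4 classes of the negative library (ratio 1.84, interval 1.58 to 2.14), and 21.2 CPM in the highest of 10 classes against 8.43 CPM in the next one. In the positive library it had 7.83, 11.4, 7.87 and 9.96 CPM with no order, a log2 ratio of 0.31, which was 0.79, past the mark, when cells were ordered without the 4 most abundant hypoxia genes. The negative-library value of Ddit3 was short of the mark, at 0.58 on the log2 scale, with 5 added to each CPM in place of 1.

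Chac1 had 48.7, 45.2, 39.9 and 32.8 CPM across the 4 classes of the negative library and 16.2, 16.0, 12.9 and 11.5 CPM in the positive library, with log2 ratios of -0.56 and -0.45. Trib3 had 27.8, 25.7, 24.1 and 19.9 CPM and 15.6, 15.3, 12.4 and 10.8 CPM, with log2 ratios of -0.46 and -0.49. Both genes had their lowest level in the highest hypoxia class of each library. Chac1 crossed the mark between the outer of 10 classes, at -0.84 in the positive and -0.79 in the negative library, and with TMM in the negative library, at -0.63. Ordered without the glucose and glycolysis genes of the list or without its 4 most abundant genes, the positive library gave -1.03 for Chac1 in both cases, and without endoderm-marker cells -0.61. Under the same 2 shortened lists Trib3 was at -0.59 and -0.43. In the negative library Trib3 crossed it too between the outer of 10 classes, at -0.61, and in cells of 20000 to 40000 UMIs, at -0.60.

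Hspa5 had 258, 286, 322 and 378 CPM in the negative and 401, 434, 448 and 535 CPM in the positive library, higher in each class than in the one before, with log2 ratios of 0.55 and 0.41. The negative-library ratio was past the mark with CPM averaged over cells, at 0.60, and in cells of 20000 to 40000 UMIs, at 0.61. The endoderm list moved with these classes, from 40.6 to 211 CPM in the negative and from 92.3 to 394 CPM in the positive library, and without endoderm-marker cells the Hspa5 ratios were 0.33 and 0.26. Xbp1 had 39.96, 39.8, 42.3 and 45.8 CPM in the negative and 27.2, 27.9, 26.5 and 31.5 CPM in the positive library. Its log2 ratios of 0.19 and 0.20 were -0.01 and -0.12 without those cells. Ddit4 had log2 ratios of 1.13 and 0.78 without them.

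Atf4, Asns and Sesn2 had log2 ratios between the outer classes from -0.11 to 0.09. In the negative library Atf4 had 156, 155, 152 and 166 CPM, Asns 350, 333, 330 and 333 CPM and Sesn2 32.0, 30.2, 30.8 and 30.2 CPM. In the positive library Atf4 had 178, 176, 170 and 164 CPM, Asns 480, 484, 502 and 508 CPM and Sesn2 39.4, 42.3, 41.1 and 41.0 CPM. Among the list genes Ero1a, an oxidase of the endoplasmic reticulum, had the highest ratio, with 98.5 against 38.4 CPM in the positive and 69.3 against 22.1 CPM in the negative library, followed by P4hb at 0.63 and 0.72. The chaperone list had 27 genes passing and 2 higher in the positive library and 24 passing and 2 higher in the negative library, with 0 lower in each and medians of 0.34 and 0.38. Of the ATF4 targets 29 passed in the positive library, with 0 called in either direction, and 33 passed in the negative library, with 1 called higher (Stc2, 10.3 against 6.30 CPM) and 2 lower (Cth, 129 against 230 CPM, and Nupr1, 128 against 211 CPM). The call of Stc2 was lost under TMM, under the median of ratios and without endoderm-marker cells, with 0 higher in each. None of the 15 sensor genes that passed was called in either library.

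Zscan4 and hypoxia levels were then crossed in the positive library, with the hypoxia-list share of a cell's UMIs taken as below or above its median. By CPM, the order held on both axes for Ddit4, Chac1 and Hspa5. Ddit4 had 21.0 CPM below and 36.7 CPM above that median among cells with 0 Zscan4 UMIs. Among cells with 10 or more it had 56.0 and 75.8 CPM. Chac1 had 20.4 and 15.2 CPM in cells with 0 Zscan4 UMIs and 6.80 and 5.12 CPM in those with 10 or more. Hspa5 had 450 and 558 CPM, and then 297 and 356 CPM. Ddit3 had 6.59 and 8.66 CPM, and then 17.4 and 14.5 CPM. For Chac1, Hspa5 and Ddit3 as for Ddit4, cells with 10 or more Zscan4 UMIs differed from those with 0 in the same direction below and above the hypoxia median. The sets with 0 Zscan4 UMIs held 727 cells below and 713 above the hypoxia median, and those with 10 or more held 404 and 259.

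Because the endoderm list moved with several of the results, cells were also compared by their primitive endoderm markers, a comparison chosen after its values were seen. In cells with 5 or more UMIs of these markers Hspa5 and Xbp1 were higher and Ddit4 was lower than in cells with 0 or 1, in both libraries. These cells numbered 458 in the positive and 215 in the negative library, against 3643 and 3564. In the positive library, of 9 genes that passed the filter, Ddit3 on one side only, 2 were called higher and 1 lower, where 11.6% and 13.6% of 8239 genes were. In the negative library, of 9 genes that passed, Ddit3 and Ddit4 on one side only, 2 were called higher and 1 lower, where 13.3% and 8.25% of 7620 genes were. The median of the 9 was 0.08 in the positive and 0.05 in the negative library, against -0.05 and 0.03 over all genes tested, and the positive-library value over all genes was 0.07 under the median of ratios.

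Hspa5 had 836 CPM in the endoderm-marker cells and 402 CPM in the others of the positive library, with a ratio of 2.08 (2.04 to 2.12), and 733 against 281 CPM in the negative one, with a ratio of 2.60 (2.54 to 2.67). Xbp1 had 55.8 and 24.7 CPM in the positive library and 74.3 and 39.9 CPM in the negative library. Ddit4 had 14.4 and 35.5 CPM, a ratio of 0.407 (0.353 to 0.468), and 6.68 and 18.6 CPM, a ratio of 0.360 (0.275 to 0.464). The same 3 genes were past the mark in each library, in the same directions. The endoderm-marker cells of the positive library also had fewer Zscan4 transcripts, at 207 against 475 CPM, and across Zscan4 classes these 3 genes differed in the matching directions, and the part of Zscan4 was not tested there. In the negative library Zscan4 was under 1 CPM in both classes. The pluripotency list was lower in the endoderm-marker cells, at 11210 against 16222 CPM in the positive and 10714 against 14963 CPM in the negative library. Asns had 601 and 480 CPM in the positive and 466 and 327 CPM in the negative library, short of the mark, and Atf4, Sesn2, Trib3 and Chac1 had log2 ratios from -0.35 to 0.08. Ddit3 was at 0.47 and 0.43, and had 18.1 CPM in the 301 positive-library cells with 2 to 4 endoderm-marker UMIs, which include the cell with 58 of its UMIs. The chaperone list stood higher with Hspa5: of 27 genes that passed in the positive library 15 were higher and 2 lower, and of 25 in the negative library 18 were higher and 1 lower, with medians of 0.64 and 0.90. Dnajc3 (116 against 43.0 CPM and 97.9 against 23.2 CPM), P4hb and Sec24d led the list, and the sensor gene Atf6 had 79.0 against 24.7 CPM and 67.3 against 18.2 CPM. Of the 15 sensor genes that passed, 1 was higher and 1 lower in the positive library, and 2 higher and 0 lower in the negative. The medians of that list were -0.07 and 0.02. Of the ATF4 targets 29 passed in the positive library, with 4 higher and 2 lower, and 32 in the negative, with 2 higher and 2 lower.

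**Figure D4:**
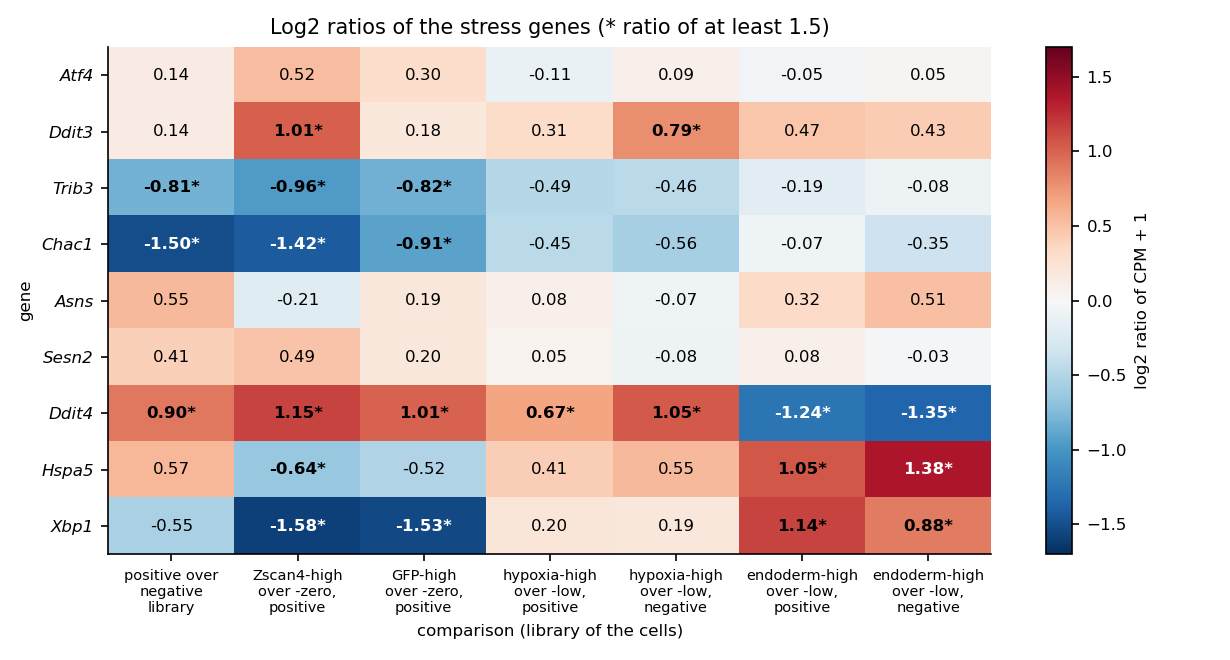
Log2 ratios of CPM + 1 for the 9 genes (rows) in the 7 comparisons (columns), with the value in each cell, red for higher and blue for lower in the first-named set, and an asterisk where the gene was called. Ddit4 is called in all 7 comparisons, lower in the 2 by endoderm markers and higher in the other 5, while Atf4, Asns and Sesn2 are called in none, and the comparisons share cells.

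The 9 genes varied little together from cell to cell. Over the 36 pairs, Pearson's r of log(1 + UMIs) in thinned cells ran from -0.09 to 0.18 (median 0.02) over 4402 positive-library cells and from -0.15 to 0.16 (median 0.02) over 3824 negative-library cells. Cells of 1 library share its preparation and free RNA, these counts are sparse, and no p-value is given. The highest pair was Hspa5 with Xbp1 in the positive library, at 0.18, and Atf4 with Chac1 in the negative library, at 0.16. Chac1 with Hspa5 had the lowest value of the negative library, -0.15. Against the gene lists behind the classes, Hspa5 had r of -0.18 with Zscan4 UMIs, 0.13 with the hypoxia list and 0.26 with the endoderm list in the positive library. Ddit4 had 0.15, 0.09 and -0.06. All of these are weak.

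For each of the 9 genes with a UMI in at least 20% of the thinned cells of a library, the genes most like it were ranked by the mean of its r in the 2 libraries among 8042 genes, and those at 0.15 or more were named, at most 5 per gene. Hspa5 was most like Hsp90b1 (0.44), Manf (0.43), Calr (0.37), Pdia6 (0.37) and Pdia3 (0.26). Chac1 was most like Nupr1 (0.28), Eif1 (0.25), G0s2 (0.24), H3f3b (0.21) and Mthfd2 (0.20). Nupr1 was also the nearest to Trib3 (0.19) and Atf4 (0.15), each with no other gene past the mark. Asns was most like Tbx3 (0.24), Eif2s2 (0.21), Eif1 (0.20), Nupr1 (0.19) and Eif4ebp1 (0.17). Ddit4 was most like Btg2 (0.17), Plk2 (0.16), Ndufa4l2 (0.16) and Bnip3 (0.15), the first a gene of the p53 list and the last of the hypoxia list. Xbp1 was most like Foxq1 (0.16). Sesn2 had no gene at 0.15 or more, and Ddit3 was detected in too few cells to be ranked.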

How the data were processed

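Per library, the authors deposited 1 sparse matrix of whole-number counts, genes by barcodes, which were taken to be UMIs. The submitters' processing notes name FastQC 0.11.2, Trim Galore 0.6.4, STAR 2.7.6a and the build mm10. Their roles, the cell calling and the gene annotation are not given in the sources used here, and the extraction text in the labels describes kits used for bulk RNA. Counts are per gene and do not separate exons from introns. Gene coordinates are those of the GENCODE annotation of the mouse build GRCm38, which mm10 names too.

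The cell filter asked for 1000 UMIs, 500 detected genes and no more than 20% mitochondrial UMIs. No doublet caller was run, and an alternative dropped cells whose UMIs exceeded the library median by over 2 times. Zscan4, GFP and endoderm classes came from the UMIs of cells thinned without replacement to 10000 UMIs. Hypoxia classes came from the list's share of all UMIs of the same cells. Levels came from all UMIs of the cells of a class, as CPM. Log2 ratios use CPM + 1. Intervals are exact (Poisson, Clopper-Pearson, conditional for ratios). No test was run on 1 library a group, and a call is a ratio of at least 1.5 with at least 10 CPM on one side and 50 UMIs in all.

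Named besides the 9 genes are the 3 genes of each list with the largest ratio in each direction, and the genes most like a member. The members and lists were chosen with earlier results of these data known. Alternatives changed the cell filter, scaling (edgeR's TMM factors, median of ratios over genes of at least 1 CPM, CPM without ribosomal and mitochondrial genes, the average CPM over cells), thinning, pseudocount, thresholds and class limits. Only the size rule, the Poisson and ratio intervals and the thinning were tested on simulated data, drawn as Poisson counts without unevenness between cells. The software was R 4.3.3 with edgeR 4.0.16, and Python 3.11.15 with scipy 1.17.1, numpy 2.4.6, matplotlib 3.10.9 and pandas 2.3.3. Chosen after the data were seen were the endoderm comparison, the cells without Zscan4 and GFP UMIs, the setting without the cell richest in Ddit3 the hypoxia list without its 4 most abundant genes, and the median of ratios over all genes with a UMI or genes of at least 10 CPM.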

Additional observations from a re-analysis of the deposited data

Results flagged for a closer look

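Some genes had opposite signs in the 2 libraries under the same comparison, and in each case the difference between the libraries was not tested. Between the highest and lowest of 4 hypoxia classes, the log2 ratio in the positive and the negative library was -0.113 and 0.0871 for Atf4, 0.0809 and -0.0744 for Asns, and 0.0541 and -0.0797 for Sesn2. Between cells with 5 or more and with 0 or 1 endoderm-marker UMIs it was -0.0464 and 0.0476 for Atf4, and 0.0837 and -0.0336 for Sesn2. None of these values is past the 1.5-fold mark. Sesn2 changed sign with the scaling in the positive library's hypoxia comparison, and Atf4 did so in both endoderm comparisons. With shortened hypoxia lists in the positive library, Atf4 was at 0.06 without the glucose and glycolysis genes of the list and at 0.09 without its 4 most abundant genes, where Asns was at -0.004. With the median of ratios over all genes with a UMI, Asns was at -0.02 in the positive library and Atf4 at -0.01 in the negative one. The opposite signs of these 2 genes thus depend on the hypoxia list and the scaling.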

How the results depend on the processing

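No paired analysis was possible because there is a single library on either side, and none could be left out. No gene that was called took the opposite sign under any alternative run. Counts of called genes among the 9 moved by more than 1.5 times in 35 alternative values and not in the other 229, and those that moved follow. The looser mark stands for the lower of the ratios tried. Library comparison: higher 2 for average CPM over cells, 0 at a ratio of 2 and 4 at the looser mark, against 1, and lower 1 at a ratio of 2 and 1 for positive-library cells without Zscan4 and GFP UMIs, against 2. Zscan4 comparison: higher 4 at the looser mark, 1 with 3 or more UMIs and 4 with 20 or more and for median of ratios over genes of 10 CPM, against 2, and lower 2 at a ratio of 2, against 4. GFP comparison: lower 1 at a ratio of 2 and 1 with 1 or more UMIs, against 3. The median of the 9 genes there was 0.30 under median of ratios and 0.003 with average CPM over cells, against 0.18. Hypoxia in the positive library: higher 0 at a ratio of 2 and for median of ratios over all genes with a UMI, and 2 at the looser mark and without the 4 most abundant hypoxia genes, against 1. Lower there was 2 at the looser mark and without glucose and glycolysis genes, and 1 without endoderm-marker cells, with the outer of 10 classes and without the 4 most abundant genes, against 0. Hypoxia in the negative library: higher 1 with pseudocount 5 and 1 at a ratio of 2, against 2, and lower 1 under TMM, median of ratios over each of 3 gene sets and average CPM over cells, and 2 at the looser mark, with the outer of 10 classes and in cells of 20000 to 40000 UMIs, against 0. Endoderm comparisons: higher 4 at the looser mark in each library and 1 at a ratio of 2 in the negative library, against 2, and lower 2 at the looser mark in the negative library, against 1. The number of genes with a larger share of cells in the positive library was 6 of 9 after thinning and 1 without it. Thresholds move these counts by construction, and for the other settings the cause was not tested. Among the lists of other genes, ATF4 targets lower between the libraries went from 5 to 13 under TMM, 10 under median of ratios and 8 for CPM outside ribosomal protein and mitochondrial genes, and chaperones higher from 12 to 4 and 6 under the first 2. Over all genes, TMM gave 685 higher and 1279 lower between the libraries, against 1418 and 393, and median of ratios gave 819 and 935. The share of higher genes among the calls was 60.3% under median of ratios in the Zscan4 comparison, against 50.9%, 63.0% under TMM and 68.2% under median of ratios in the GFP comparison, against 48.7%, and 59.2% under median of ratios in the endoderm comparison of the positive library, against 45.9%. Over all genes with a UMI that scaling gave 35.1% between the libraries, against 78.3%, 37.6% for hypoxia in the positive library, against 54.0%, and 78.8% in the negative, against 90.6%, and 50.02% for Zscan4. The smallest sums behind a called gene were 61 UMIs of Ddit4 in the endoderm-marker cells of the negative library and 94 UMIs of Chac1 in the Zscan4-rich class, and over whole libraries Ddit3 had the fewest, with 1290 and 1306.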
